A study of Rattus norvegicus with 4 samples.

Results

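The genes described are 53 chemokines and chemokine receptors of the rat uterus, out of 18166 genes tested. They were picked by a rule on symbols, written with earlier results of these data known. It took every gene named Ccl, Cxcl, Ccr or Cxcr followed by a number, with Cx3cl1, Cx3cr1, Xcl1, Xcr1 and the Ackr genes. Of the 53 genes, 34 were ligands and 19 were receptors, and each was read by 1 probe set. Total RNA from whole pre-implantation uterus of adult Sprague Dawley rats aged 10 to 12 weeks was hybridised to 4 Affymetrix whole-transcript arrays on day 5 of pregnancy. The ormeloxifene group (2 arrays, labelled biological replicates 1 and 2) came from rats that received 1.25 mg per kg by mouth, in gum acacia, on the first day of pregnancy (day 1); the vehicle group (2 arrays, numbered likewise) came from rats given the vehicle alone. All rats were therefore pregnant, and no non-pregnant or untreated uterus was analysed here. Ormeloxifene, a contraceptive pill, belongs to the selective oestrogen receptor modulators, which block or mimic oestrogen depending on the tissue. The labels do not say how many rats stand behind an array. The comparison asks which chemokine transcripts differed between the groups just before implantation.

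Chemokines are small secreted proteins that direct the movement of leukocytes, and they act through G protein-coupled receptors on the cells they attract. They are classed by the spacing of their first cysteines as CC, CXC, CX3C or XC, and CXC ligands with a Glu-Leu-Arg (ELR) motif mainly attract neutrophils. Atypical receptors bind chemokines without the usual G protein signal and clear them or shape their gradients. In the uterus of early pregnancy, chemokines from stroma, epithelium and vessels are known to act on macrophages, natural killer cells, eosinophils, dendritic cells and lymphocytes.

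Signals are on a log2 scale after quantile normalization, and differences are ormeloxifene minus vehicle with the standard error from limma. Probe sets of different genes bind with different strength, so a percentile among all genes describes signal and not the number of transcripts. The deposited table carries no detection calls. A dim mark was therefore set at 5.998, the 95th percentile of the vehicle means of 1344 olfactory and vomeronasal receptor genes, which are used in sensory epithelia. In whole tissue, fewer cells of a type and less RNA per cell cannot be told apart.

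Markers of the labelled tissue were present, with 6 of 6 epithelial, 6 of 6 stromal, 4 of 4 smooth muscle, 3 of 3 endothelial and 5 of 5 uterine identity genes above the dim mark. Of the leukocyte lists, 6 of 7 macrophage genes, 3 of 7 T cell genes, 2 of 4 eosinophil genes, 2 of 3 B cell genes, 1 of 6 neutrophil genes, 1 of 6 natural killer genes, 1 of 4 dendritic genes and 0 of 5 mast cell genes were above it. The defining T cell genes Cd3d, Cd3e and Cd3g were all below the mark. Over the 53 chemokine genes, arrays with the same replicate number correlated at 0.971 and 0.969, the 2 vehicle arrays at 0.942 and the 2 ormeloxifene arrays at 0.969, a description across genes that share their arrays. Deposited values were exactly equal at 488 and 551 probe sets between arrays with the same number and at 0 in each of the other 4 pairs of arrays. For the 12 genes described in full, differences within each number are for this reason given beside the pooled ones.

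In the vehicle uterus, 26 of the 53 genes (49.1%) lay above the dim mark, against 56.7% of all genes tested. Above it were 19 of the 34 ligands and 7 of the 19 receptors; that contrast was not tested. The bright set, at or above the 75th percentile of all genes, held 11 members: Cxcl13, Ackr3, Cxcl16, Ccl5, Ccl2, Cxcl12, Ccl21, Ccl6, Cxcl10, Cxcl9 and Cx3cl1. It thus held 10 ligands and, from the receptor side, the atypical receptor Ackr3 alone. At the other end, 27 members lay below the mark, with vehicle means from 3.08 to 5.78; for these a signal cannot be told from background.

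**Figure D1:**
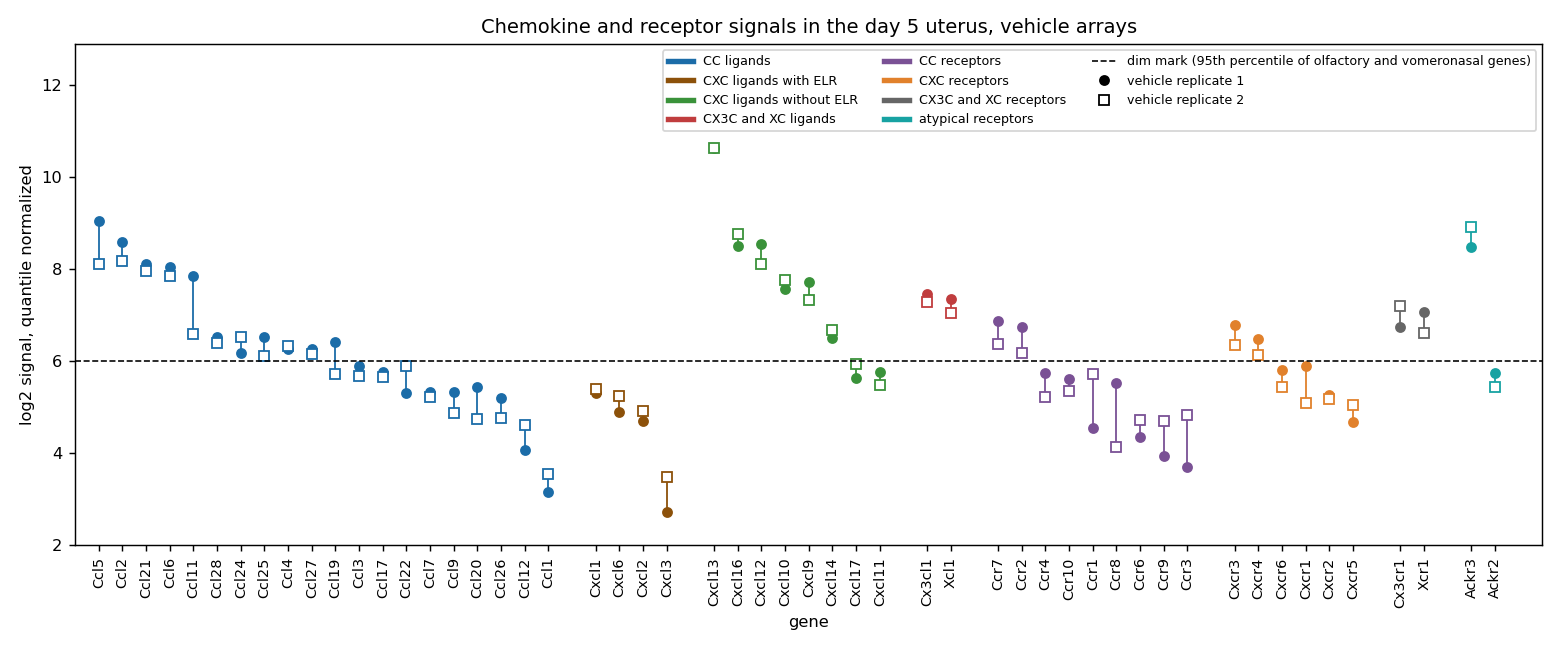
Log2 signal of each of the 53 genes in vehicle replicate 1 (filled circles) and vehicle replicate 2 (open squares), grouped by class, with a dashed line at the dim mark of 5.998. The CXC ligands with ELR all lie below the line, while Cxcl13 stands at 10.63 and 10.64; heights of different genes are set by their probes as well as by their transcripts.

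With ormeloxifene, 0 of the 53 genes differed at an adjusted p under 0.05 by limma, where 0% of all genes did. At an unadjusted p under 0.05 there were 2 members, Ccl2 lower and Cxcl12 higher, 3.77% of the members against 2.20% of all genes (1.12% higher, 1.08% lower). Ccl2 missed that mark without vehicle replicate 1 (unadjusted p = 0.0827) or ormeloxifene replicate 2 (0.101), and Cxcl12 without vehicle replicate 2 (0.25), ormeloxifene replicate 1 (0.198) or ormeloxifene replicate 2 (0.076), all by limma. Members whose groups stood clear of each other numbered 17 (32.1%), 10 higher and 7 lower, against 25.7% of all genes, 13.9% higher and 11.8% lower. Those shares were near the background, so they show nothing particular to chemokines. An absolute difference of at least 0.5 was reached by 3 members, Ccl2, Cxcl12 and Ccl11 (5.66%, against 3.63% of all genes). Of the 53 members, 32 were higher and 21 lower, at a median of 0.04 against 0.02 over all genes. The split was 24 higher and 29 lower without ormeloxifene replicate 2. With 2 arrays against 2, an exact 2-sided permutation test of 1 gene cannot go below p = 0.333 and was not used.

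**Figure D2:**
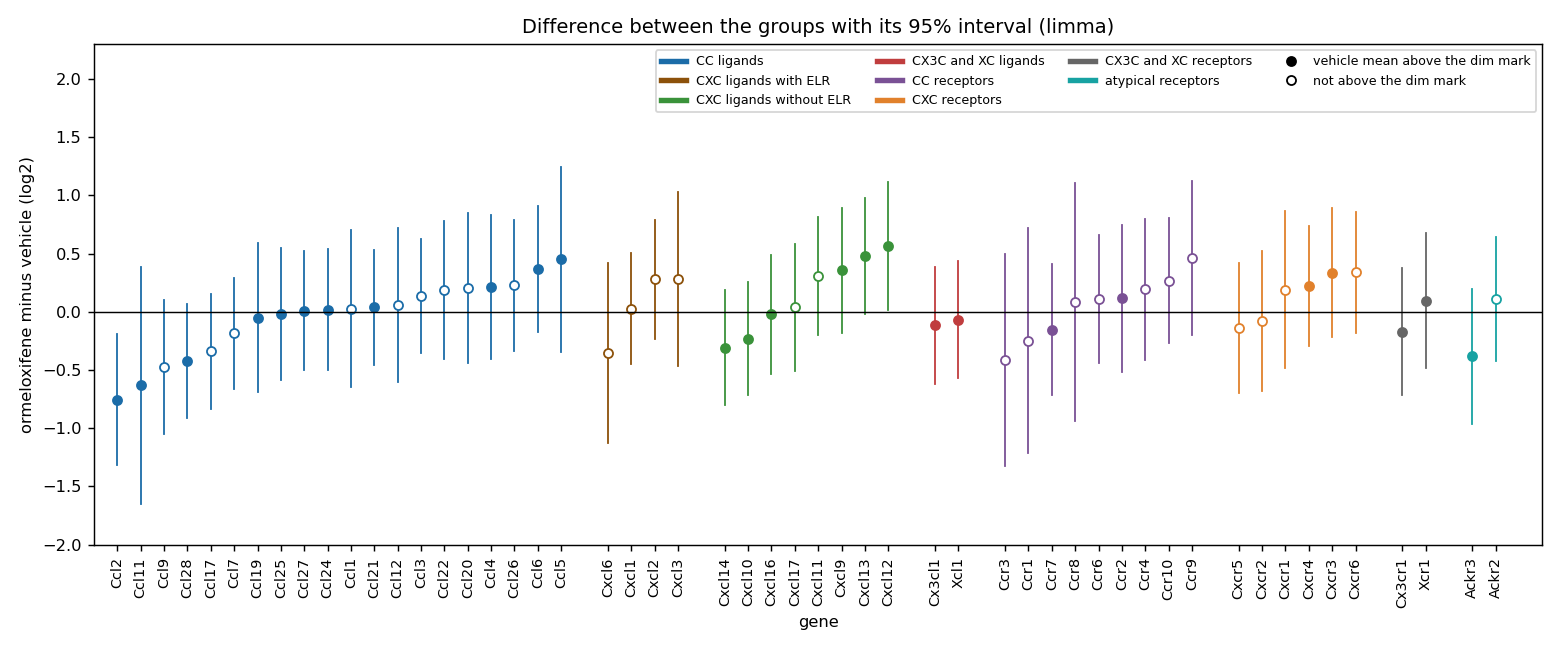
Difference between the groups, ormeloxifene minus vehicle on the log2 scale, for each of the 53 genes, with its 95% interval from limma; filled points have a vehicle mean above the dim mark. Only the intervals of Ccl2, from -1.32 to -0.19, and of Cxcl12, from 0.01 to 1.12, leave out 0, and neither gene passed after adjustment over all genes.

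Among the CC ligands, Ccl2 had the largest difference. Ccl2, also called MCP-1, attracts monocytes through Ccr2. Its signal was 8.59 and 8.17 in the vehicle arrays and 7.78 and 7.47 in the ormeloxifene arrays. Both ormeloxifene arrays lay below both vehicle arrays. The difference was -0.76 ± 0.24, or 1.69-fold lower, with an unadjusted p of 0.0151 and an adjusted p of 1.00 by limma. Within replicate number 1 it was -0.81 and within number 2 it was -0.70. The receptor Ccr2, at 6.75 and 6.17 with vehicle and 6.78 and 6.37 with ormeloxifene, overlapped between the groups (0.12 ± 0.27). The macrophage genes, whose summed linear signal ran from 1312 to 1338 with vehicle and from 1288 to 1411 with ormeloxifene, were higher in 5 of 7 members and lower in 2, all at an unadjusted p of at least 0.396.

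Ccl7, Ccl11, Ccl12 and Ccl1 follow Ccl2 in the GRCr8 annotation with 0 other protein-coding genes between them. Ccl11, or eotaxin, attracts eosinophils through Ccr3. Its signal was 7.85 and 6.59 with vehicle and 6.17 and 7.01 with ormeloxifene. The difference of -0.63 ± 0.44 combined opposite directions, -1.68 within number 1 and 0.41 within number 2. Leaving out vehicle replicate 1 gave -0.00 and leaving out ormeloxifene replicate 1 gave -0.21, against -1.26 without vehicle replicate 2 and -1.05 without ormeloxifene replicate 2. The value thus rested on the arrays numbered 1. The eosinophil genes had a median difference of 0.14, with summed signals from 237 to 268 with vehicle and from 268 to 289 with ormeloxifene. Ccl7, another monocyte attractant, was dim at 5.31 and 5.21 with vehicle and 5.06 and 5.09 with ormeloxifene. Ccl12 and Ccl1 were dimmer still, with differences of 0.06 ± 0.28 and 0.02 ± 0.29. Among the 5 neighbours, differences above 0 thus came only from Ccl12 and Ccl1, both below the dim mark and smaller than their standard errors. Those of Ccl2, Ccl7 and Ccl11 were below 0.

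Ccl5, or RANTES, attracts T cells and monocytes and is made by activated lymphocytes among other cells. It was bright and uneven: 9.06 and 8.10 with vehicle and 9.27 and 8.79 with ormeloxifene. The vehicle arrays differed from each other by more than the group means did, and the groups overlapped. The difference was 0.45 ± 0.34, or 0.93 without vehicle replicate 1, -0.03 without vehicle replicate 2, 0.21 without ormeloxifene replicate 1 and 0.69 without ormeloxifene replicate 2. Within numbers it was 0.22 and 0.68. Ccl6, a rodent CC chemokine of the same cluster, stood at 8.05 and 7.85 with vehicle and 8.11 and 8.52 with ormeloxifene (0.36 ± 0.23). Its groups did not overlap, yet within number 1 the difference was 0.06 and within number 2 it was 0.66; leaving out ormeloxifene replicate 2 gave 0.16 and leaving out ormeloxifene replicate 1 gave 0.57. Ccl9, the gene between Ccl5 and Ccl6, went the other way below the dim mark, from 5.32 and 4.87 to 4.79 and 4.45 (-0.47 ± 0.25, with -0.53 and -0.42 within numbers). Ccl3 and Ccl4, the macrophage inflammatory proteins of the same cluster, differed by 0.13 ± 0.21 and 0.21 ± 0.27.

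Ccl21 and Ccl19 guide dendritic cells and lymphocytes through Ccr7, and Ccl21 comes largely from lymphatic endothelium. Ccl21 stood at 8.11 and 7.96 with vehicle and at 7.97 and 8.17 with ormeloxifene. The 4 arrays lay within a narrow span and the groups overlapped. The groups differed by 0.04 ± 0.21 (95% interval -0.46 to 0.53), by -0.14 within number 1 and by 0.21 within number 2. Ccl19 (-0.05 ± 0.27) and Ccr7 (-0.15 ± 0.24) lay at percentiles 45.2 and 58.5. The lymphatic endothelial genes were 0.02 higher at the median, with 3 of 4 members above 0.

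Ccl28, a mucosal epithelial chemokine that acts through Ccr10 and Ccr3, was 6.52 and 6.39 with vehicle and 5.94 and 6.13 with ormeloxifene. Its groups did not overlap, and the difference was -0.42 ± 0.21 (unadjusted p = 0.0817 by limma). Within numbers it was -0.58 and -0.26. The epithelial markers were higher in 3 of 6 members and lower in 3, with a median of 0.04. The receptor Ccr10 was dim, with a difference of 0.27 ± 0.23. Ccl17 and Ccl22, ligands of Ccr4, were dim and went opposite ways, at -0.34 ± 0.21 and 0.19 ± 0.25. The remaining CC ligands, Ccl20, Ccl24, Ccl25, Ccl26 and Ccl27, differed by -0.02 to 0.23. Over the 20 CC ligands, 12 were higher and 8 lower, or 10 and 10 with arrays centred on their medians.

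The CXC ligands without ELR held the brightest probe set of the family and the other member with a small p. Cxcl12, also called SDF-1, is a stromal chemokine that holds and attracts leukocytes and progenitor cells through Cxcr4. Its signal was 8.55 and 8.10 with vehicle and 8.99 and 8.79 with ormeloxifene. Both ormeloxifene arrays lay above both vehicle arrays. The difference was 0.56 ± 0.24, or 1.48-fold, with an unadjusted p of 0.0461 and an adjusted p of 1.00 by limma. Within numbers it was 0.44 and 0.68, and it was 0.34 without vehicle replicate 2. Cxcr4, its signalling receptor, was 6.48 and 6.14 with vehicle and 6.54 and 6.53 with ormeloxifene (0.22 ± 0.22). Ackr3, the atypical receptor that binds and removes Cxcl12, was 8.49 and 8.92 with vehicle and 8.14 and 8.51 with ormeloxifene. Its groups overlapped by a narrow margin, since the higher ormeloxifene array lay just above the lower vehicle array, and its difference was -0.38 ± 0.25. Within numbers Ackr3 differed by -0.35 and -0.41. The difference was -0.60 without vehicle replicate 1, -0.17 without vehicle replicate 2 and -0.20 without ormeloxifene replicate 1.

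Cxcl13 attracts B cells and follicular T cells through Cxcr5 and is a chemokine of lymphoid follicles. It stood at 10.63 and 10.64 with vehicle, at percentile 99.1 of all genes, and at 10.98 and 11.25 with ormeloxifene. The vehicle arrays were nearly equal and both ormeloxifene arrays lay above them. The difference was 0.48 ± 0.21 (unadjusted p = 0.0578, adjusted p = 1.00 by limma), with 0.34 and 0.61 within numbers. On the values as deposited it was 0.42 (unadjusted p = 0.252 by limma). With arrays centred on their medians it was 0.40 (unadjusted p = 0.180 by limma). Leaving out 1 array gave Cxcl13 differences from 0.34 to 0.62. Its receptor Cxcr5 was below the dim mark in all 4 arrays, from 4.54 to 5.03. The B cell genes Cd79a, Ms4a1 and Cd79b differed by -0.34, -0.15 and -0.02 at unadjusted p of 0.418, 0.472 and 0.922 by limma, with groups that overlapped in Cd79a and Cd79b. Their summed signals ran from 166 to 224 with vehicle and from 158 to 190 with ormeloxifene. The part of these cells in the Cxcl13 value was not tested.

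Cxcl9, Cxcl10 and Cxcl11 are interferon-induced ligands of Cxcr3, which activated T cells and natural killer cells carry. Cxcl10 was 7.56 and 7.76 with vehicle and 7.39 and 7.46 with ormeloxifene, and its groups did not overlap (-0.23 ± 0.21, or -0.13 without vehicle replicate 2). Within numbers it differed by -0.16 and -0.30. Cxcl9, by contrast, was 7.72 and 7.33 with vehicle and 7.79 and 7.98 with ormeloxifene (0.36 ± 0.23), with 0.06 and 0.65 within numbers. Leaving out vehicle replicate 2 gave 0.16, and leaving out vehicle replicate 1 gave 0.55. Cxcl11 was dim and differed by 0.31 ± 0.22. These 3 neighbouring genes thus had differences of both signs. Cxcr3 was 6.78 and 6.34 with vehicle and 6.78 and 7.01 with ormeloxifene (0.34 ± 0.24), with nearly all of that within number 2 (0.67, against 0.00 within number 1). All 7 T cell markers had a higher mean with ormeloxifene, with a median difference of 0.33. Their summed signals ran from 714 to 753 with vehicle and from 901 to 954 with ormeloxifene. Cd4 was the brightest, at 8.45 and 8.73 with vehicle and 8.86 and 8.97 with ormeloxifene, and weighed most in those sums. The sums therefore describe this list, Cd4 above all, and do not give a number of T cells. Cd3d, Cd3e and Cd3g, all below the dim mark, differed by 0.25, 0.21 and 0.11. None of the 7 reached an unadjusted p under 0.05, the smallest being 0.0776 for Cd8a. Every measured marker also had a higher mean in the smooth muscle list (4 of 4, median 0.28), the endothelial list (3 of 3, 0.25) and the adipocyte list (4 of 4, 0.23). The natural killer genes, with 1 of 6 above the dim mark, were higher in 2 members and lower in 4, at a median of -0.05. The part of T cells or natural killer cells in the values of Cxcr3 and its ligands was not tested.

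The promoters of Cxcl12, Cxcl13, Cxcl10 and Cxcl9 are shown because these CXC ligands were bright, had groups that did not overlap and went both ways. Each runs from 250 bases before the RefSeq transcript start to 50 bases from it in GRCr8 and is written 5′ to 3′ on the gene's strand. Capitals mark matches, on either strand, to the TATA box TATAAA, the kappaB consensus bound by NF-kappaB, the AP-1 site TGANTCA, the GC box GGGCGG and AGGTCA, the half-site shared by oestrogen and other nuclear receptors; the motifs were chosen after these sequences had been seen.
Cxcl12, chr4:152060531-152060830, plus strand: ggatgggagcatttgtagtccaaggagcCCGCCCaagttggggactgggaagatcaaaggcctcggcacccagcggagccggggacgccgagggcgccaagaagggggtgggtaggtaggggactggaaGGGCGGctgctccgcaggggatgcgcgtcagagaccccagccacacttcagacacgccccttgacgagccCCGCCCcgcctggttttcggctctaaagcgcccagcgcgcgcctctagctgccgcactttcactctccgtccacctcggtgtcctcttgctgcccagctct
Cxcl13, chr14:13917871-13918170, minus strand: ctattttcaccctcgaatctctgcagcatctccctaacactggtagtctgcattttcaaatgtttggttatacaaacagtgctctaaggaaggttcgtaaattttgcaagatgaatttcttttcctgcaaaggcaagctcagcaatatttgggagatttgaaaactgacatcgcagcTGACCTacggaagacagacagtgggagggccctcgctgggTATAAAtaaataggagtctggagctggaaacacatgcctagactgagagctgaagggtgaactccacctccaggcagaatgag
Cxcl10, chr14:15988816-15989115, plus strand: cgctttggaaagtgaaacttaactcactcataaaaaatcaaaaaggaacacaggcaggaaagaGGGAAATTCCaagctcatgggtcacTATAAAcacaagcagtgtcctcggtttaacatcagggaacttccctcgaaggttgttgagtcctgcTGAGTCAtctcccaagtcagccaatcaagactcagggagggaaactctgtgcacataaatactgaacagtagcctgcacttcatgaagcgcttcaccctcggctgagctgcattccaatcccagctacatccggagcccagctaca
Cxcl9, chr14:16006916-16007215, plus strand: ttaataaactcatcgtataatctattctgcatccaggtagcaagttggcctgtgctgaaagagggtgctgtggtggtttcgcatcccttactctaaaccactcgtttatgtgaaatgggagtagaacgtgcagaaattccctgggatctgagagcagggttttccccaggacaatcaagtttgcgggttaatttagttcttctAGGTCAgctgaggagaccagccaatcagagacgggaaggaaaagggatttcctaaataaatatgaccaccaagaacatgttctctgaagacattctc

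The Cxcl12 window held 3 GC boxes and no TATAAA match. The Cxcl13 window held a TATA box from 33 to 28 bases before the start and a nuclear receptor half-site from 73 to 68 bases before it. The Cxcl10 window held a kappaB match 187 to 178 bases before the start. It also held a TATAAA match at 162 to 157 bases and an AP-1 site at 96 to 90 bases. The Cxcl9 window held a half-site 47 to 42 bases before the start. None of these matches overlapped another. Promoters were given for 41 of the 53 members. Of these, 8 (19.5%) held a kappaB match, those of Cxcl1, Cxcl2, Cxcl6, Cxcl10, Cxcl11, Ccl9, Ccl20 and Ccr3, against 4.18% of 33469 rat promoters of the same length. A TATAAA match anywhere in the window was found in 11 (26.8%, against 14.2%) and a GC box in 10 (24.4%, against 33.1%). An AP-1 site was found in 7 (17.1%, against 7.33%) and the half-site in 12 (29.3%, against 16.2%). Members were reduced to a single promoter per gene, and the 33469 were not. These shares were not tested. The 8 genes with a kappaB match went both ways, from Ccl9 at -0.47 to Cxcl11 at 0.31, and 7 of them were below the dim mark. A match to letters is a description and does not show a bound site.

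Cxcl16, a membrane-anchored ligand of Cxcr6, also serves as a scavenger receptor. Its signal was 8.50 and 8.77 with vehicle and 8.52 and 8.71 with ormeloxifene, with groups that overlapped fully. The groups differed by -0.02 ± 0.22 (95% interval -0.53 to 0.49), with 0.02 and -0.06 within numbers. Cxcr6, found on T cell subsets and natural killer T cells, was dim and differed by 0.34 ± 0.22. Cxcl14, an epithelial chemokine, was 6.49 and 6.66 with vehicle and 6.17 and 6.37 with ormeloxifene, with groups that did not overlap (-0.31 ± 0.21). Cxcl17, a mucosal chemokine, was dim and differed by 0.04 ± 0.24. Over the 8 CXC ligands without ELR, 5 were higher and 3 lower, at a median of 0.17.

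The CXC ligands with ELR and their receptors were dim throughout. Cxcl1, Cxcl2, Cxcl3 and Cxcl6 had vehicle means from 3.08 to 5.35, and the neutrophil receptors Cxcr1 and Cxcr2 had 5.49 and 5.21. Cxcl1 was 5.31 and 5.38 with vehicle and 5.32 and 5.43 with ormeloxifene. Its groups overlapped, and the 95% interval of the difference (0.03 ± 0.20) ran from -0.45 to 0.50. Cxcl2 and Cxcl3 differed by 0.28 each, and Cxcl6 by -0.36 ± 0.33. The neutrophil markers were higher in 3 of 6 members and lower in 3. The only one at an unadjusted p under 0.05 was S100a9, a calcium-binding protein of myeloid cells, at 5.58 and 6.01 with vehicle and 5.13 and 5.32 with ormeloxifene (unadjusted p = 0.0423 by limma). S100a9 was below the dim mark.

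**Figure D3:**
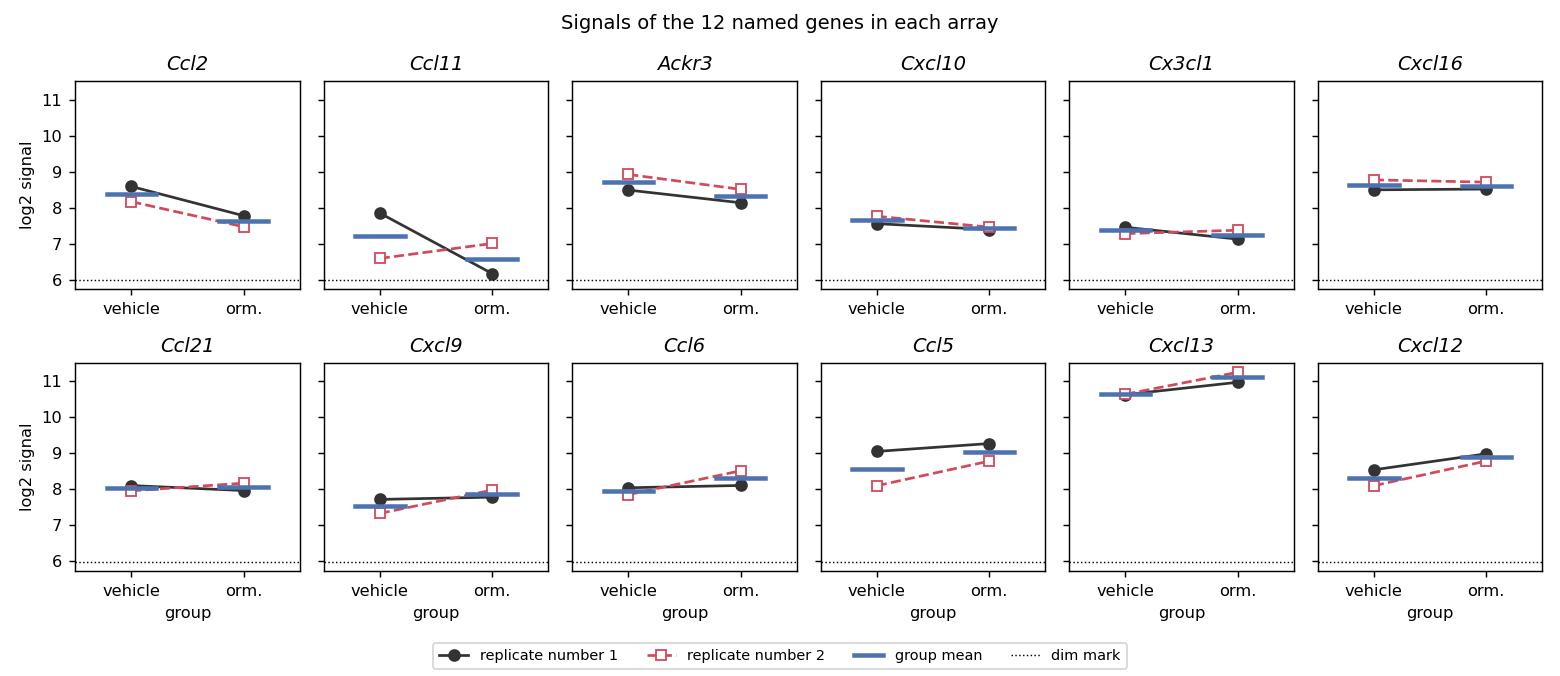
Log2 signal of the 12 genes named by rule (bright in vehicle, unadjusted p under 0.05 or an absolute difference of at least 0.5) in each of the 4 arrays, ordered by their difference; lines join arrays with the same replicate number, bars are group means of 2 arrays and the dotted line is the dim mark. Both lines of Ccl2 slope down and both lines of Cxcl12 and Cxcl13 slope up, while the lines of Ccl11 cross.

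Cx3cl1, or fractalkine, is a membrane-bound chemokine of endothelium and epithelium whose receptor Cx3cr1 marks monocytes and macrophages. Cx3cl1 was 7.46 and 7.28 with vehicle and 7.13 and 7.37 with ormeloxifene, with groups that overlapped (-0.12 ± 0.22, with -0.33 and 0.09 within numbers). Cx3cr1 was 6.73 and 7.18 with vehicle and 6.73 and 6.85 with ormeloxifene (-0.17 ± 0.23). Xcl1, made by natural killer and T cells, and its receptor Xcr1, of cross-presenting dendritic cells, differed by -0.07 ± 0.21 and 0.09 ± 0.25. All of these pairs were above the dim mark, and their groups overlapped.

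Several receptors differed more between replicates of a group than between groups. Of the 19 receptors, 12 were higher and 7 lower with ormeloxifene, at a median of 0.11, and 0 reached an unadjusted p under 0.05, the smallest being 0.145 for Ccr9. Ccr1, a receptor of Ccl3 and Ccl5, was 4.53 and 5.70 with vehicle and 4.47 and 5.27 with ormeloxifene. Ccr8, the receptor of Ccl1, was 5.51 and 4.11 with vehicle and 5.18 and 4.60 with ormeloxifene. In both genes, the replicates of a group lay farther apart than the group means. Ccr3, the eosinophil receptor of Ccl11, Ccl24 and Ccl26, stood at 3.69 and 4.83 with vehicle and at 3.53 and 4.16 with ormeloxifene (-0.41 ± 0.39). Ccr9, the receptor of Ccl25, differed by 0.46 ± 0.28, 0.78 within number 1 and 0.14 within number 2. Ccr4, Ccr6 and the scavenging receptor Ackr2 differed by 0.19, 0.11 and 0.11, all below the dim mark.

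**Figure D4:**
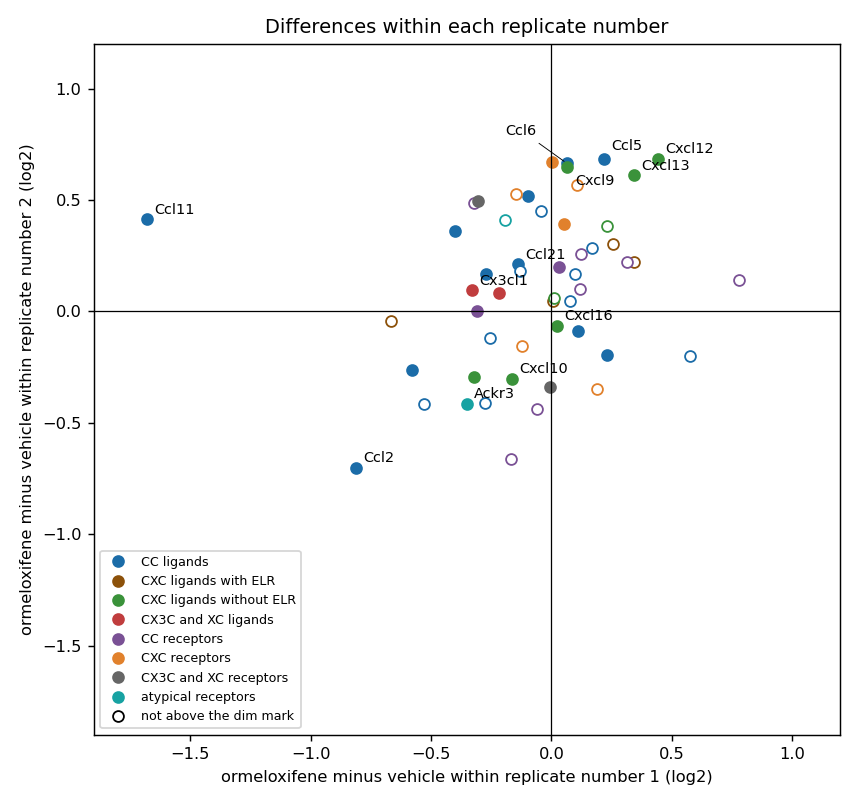
Difference between ormeloxifene and vehicle for each of the 53 genes within replicate number 1 (x axis) and within replicate number 2 (y axis), both on the log2 scale, coloured by class, with open points for genes not above the dim mark. Ccl2 lies at -0.81 and -0.70, Cxcl12 at 0.44 and 0.68, and Ccl11 at -1.68 and 0.41, the member farthest from the diagonal.

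Genes that work with chemokines were taken as lists, and 0 of their members passed the adjusted threshold by limma. Of 30 signalling effectors measured, 19 were higher and 11 lower, with 0 at an unadjusted p under 0.05 and a median of 0.05. Those of smallest p were Stat3 (-0.45 ± 0.21), a transcription factor, Rgs16 (-0.47 ± 0.22), which quenches G protein signals, and the receptor kinase Grk5 (0.37 ± 0.22). Of 21 processing enzymes and matrix partners, 13 were higher and 8 lower, with 0 at an unadjusted p under 0.05; the smallest p were those of Cd74 (0.38 ± 0.21), the class II invariant chain, the protease Ctsb (0.37 ± 0.21) and the collagenase Mmp8 (-0.37 ± 0.24). Of 25 cytokines, receptors and factors that induce chemokines, 14 were higher and 11 lower, again with 0 at an unadjusted p under 0.05. The interleukin 4 receptor chain Il4r was 8.92 and 8.95 with vehicle and 8.51 and 8.48 with ormeloxifene (-0.44 ± 0.20). Il1b, an inducer of Ccl2, was 6.13 and 6.49 with vehicle and 5.86 and 5.84 with ormeloxifene (-0.47 ± 0.22), and Tnfrsf1a, a receptor of tumour necrosis factor, differed by -0.41 ± 0.23. In Il4r, Il1b and Tnfrsf1a, both ormeloxifene arrays lay below both vehicle arrays. Separation of that kind was seen in 9 of these 25 genes, 3 higher and 6 lower, against a share of 25.7% over everything tested. Whether Il1b had a part in the Ccl2 value was not tested. The platelet chemokines Pf4 and Ppbp, which the naming rule does not cover, differed by -0.13 ± 0.28 and 0.15 ± 0.25.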

How the data were processed

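The authors deposited log2 signals of 36685 probe sets on 4 arrays. Affymetrix Expression Console made them, per the submitters' processing notes; version, summary method and genome build were not given in the sources used here. That the scale is log2 was read from the values. Trizol RNA (100 ng per array) was labelled with biotin, per the labels' protocols. Column medians ran from 5.67 to 5.93, so the columns were quantile normalized over all probe sets. The platform table named a single gene at 18511 probe sets, more than 1 gene at 575 and no gene at 17599. The brightest probe set per gene left 18166 genes. All 53 members matched GRCr8 by gene number; sequences are RefSeq's.

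Differences came from limma 3.58.1 (lmFit, eBayes, 2-sided) in R 4.3.3, without a block, with Benjamini-Hochberg adjustment over all genes (threshold 0.05). Residual degrees of freedom were 2, and 7.55 after moderation. The p-values measure spread between labelled biological replicates, whose source animals are not described. With no block, that spread also holds any difference between replicate numbers that both groups share. Over all tested genes, r was 0.980 and 0.983 for the 2 pairs that shared a number but not a treatment. It was lower within a treatment, at 0.963 for vehicle and 0.973 for ormeloxifene. The script was tested on simulated data.

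Values in every array were given by rule for 12 members. The rule was a vehicle percentile of at least 75, an unadjusted p under 0.05 or an absolute difference of at least 0.5. Array values or within-number differences of some other members are also printed, outside this rule. Of each pathway list the 3 genes of smallest p were named; other members are named so that each is accounted for. Members and lists were chosen with earlier results of these data known. Alternatives were normalization, replicate block, probe set rule, filter on dim genes, intensity trend and each array left out.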

Additional observations from a re-analysis of the deposited data

How the results depend on the processing

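No alternative called a chemokine gene at an adjusted p under 0.05. Ccl2 came nearest, at 0.0907 with the replicate block on deposited values. Of 132 values of the 12 named genes, 126 kept their sign. The block, averaged probe sets, the filter and the intensity trend leave these differences unchanged by construction, so many of the 126 could not turn. The 6 that turned each came from leaving out 1 array. Ccl5 ran from -0.0254 to 0.93, Ccl21 from -0.0656 to 0.14, Cxcl16 from -0.16 to 0.12 and Cx3cl1 from -0.24 to 0.00606. Members at an unadjusted p under 0.05 numbered 2, but 1 on the values as deposited and 1 with centred arrays (Ccl2 each time), 3 with the lowest 25% of genes left out or with an intensity trend (Cxcl13 added), 1 to 5 without an array (5 without vehicle replicate 1, 4 without vehicle replicate 2, 1 without ormeloxifene replicate 1), and 8 with the replicate block on normalized or on deposited values. Over all genes, that count was 399, or 142 on the values as deposited, 1228 with the replicate block, 1163 with the block on deposited values and 309 to 945 without an array. Genes called after adjustment numbered 0, or 1 with centred arrays, 1 with averaged probe sets, 3 with an intensity trend, 4 with the lowest 25% left out, 5 with the replicate block, 84 with the block on deposited values and 0 to 3 without an array. The cause of these shifts was not tested. With 1 array left out, the lone array is taken to vary like the other group. The block rests on a shared number only: deviations of same-numbered arrays correlated at 0.475 across all genes, and on normalized values the 8 members were Ackr3, Ccl2, Ccl28, Ccl5, Ccl9, Ccr9, Cxcl12 and Cxcl13 (15.1%, against 6.76% of all genes). On deposited values Ccl11 and Ccr3 stood in place of Ackr3 and Ccl28. The number of members above the dim mark was 26 as deposited, with centred arrays and with averaged probe sets alike. Against the values as deposited, centring moves members and mark by the same amount. Averaging could only move the mark, since each member has 1 probe set. The table gives no signal over background, so the values of the 27 members below the dim mark are the least firm.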
